A study of Mus musculus with 6 samples.

Results

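A set of 10 genes of the MYC/MAX network and its arrestin targets was followed in 4T1 cells after KDM3B inhibition. They were Myc, Mycl, Max, Mxd1, Mxd4, Mxi1, Mnt, Mlx, Txnip and Arrdc4, chosen by symbol from the table of gene counts. They make up 10 of the 22116 named genes of that table, and 10 of 10 were among the 12288 genes with enough reads to be tested. 4T1 is a mouse mammary carcinoma cell line. Cultures received DMSO, the vehicle, or P3FI-90, a small molecule that inhibits the histone H3K9 demethylase KDM3B, at 10 µM, both for 24 h. Each treatment had 3 RNA–seq libraries, made from total RNA with an mRNA kit. The labels give no genetic change in either group and do not state that the 3 libraries came from separate cultures, so the p-values measure only the spread between these libraries, which may be technical.

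MYC, L-MYC (encoded by Mycl) and the MXD proteins are basic helix-loop-helix leucine zipper factors that bind DNA chiefly as partners of MAX, at the E-box CACGTG. MYC–MAX dimers recruit histone acetyltransferases and raise transcription of genes for ribosome production and nucleotide synthesis, while MXD and MNT dimers recruit SIN3 corepressors to the same sites. MLX stands in a parallel arm, where it pairs with MondoA (encoded by Mlxip) or ChREBP (Mlxipl), which respond to glucose phosphates, and with some MXD proteins. Txnip and Arrdc4 are the best known MondoA targets. Both encode alpha-arrestins that lower glucose uptake, and TXNIP also binds and inhibits thioredoxin.

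The libraries held 31327094 to 37395732 counts on named genes. Counts per library were scaled by edgeR's TMM method to the mean effective library size, and these scaled values are called normalized counts here. A log2 fold change is P3FI-90 relative to DMSO throughout, and a gene was called higher or lower at an adjusted p under 0.05 in edgeR's quasi-likelihood test with Benjamini-Hochberg adjustment over all genes tested. Most of the transcriptome passed: 79.3% of tested genes were called, 39.9% higher and 39.4% lower, and the median log2 fold change was 0.013. Scaling to total counts in place of TMM gave 6179 higher and 3641 lower genes against 4908 and 4841, so the balance of directions depends on the scaling. All 6 epithelial markers examined were detected in every library, and all 6 were lower with P3FI-90, with Krt14 at a log2 fold change of −2.15, Epcam at −1.32 and Krt8 and Krt18 at −1.18. As TPM, a level per exon length, the 6 summed to 5070–5311 in the DMSO libraries and 3129–3259 in the P3FI-90 libraries. The leukocyte markers Ptprc, Cd68, Cd3e and Itgam summed to 23.8–29.6 TPM in DMSO and 24.7–34.4 TPM in P3FI-90, and Cd68 and Ptprc, the 2 tested, were not called. Nearly all of that sum was Cd68, at a mean of 26.1 TPM in DMSO and 30.0 in P3FI-90. Ptprc stood at 0.041 and 0.082, and Cd3e and Itgam lay lower still. The fibroblast and endothelial markers Pdgfra, Dcn, Pecam1 and Cdh5 summed to 11.6–11.7 and 10.7–12.2 TPM, with Dcn and Cdh5 near 0. Nearly all of this sum was Pdgfra (means 11.6 and 10.9 TPM), with Pecam1 at 0.061 and 0.37. Of these, Pdgfra was lower (log2 fold change −0.50, from 1355 to 958 normalized counts), and Pecam1 was higher (2.10) at 4.42 and 20.1 mean normalized counts. The TPM sums show how abundant the markers were and were not compared between groups, because the median tested gene was itself 0.42 (log2) higher on that scale. The part of these markers in the results below was not tested. Since RNA was taken in bulk, fewer expressing cells and less RNA per cell cannot be told apart.

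Among the 10 genes, 6 were higher, 2 were lower and 2 were not called. Txnip, Arrdc4, Mxd1, Mycl, Max and Mxd4 were higher, and Myc and Mxi1 were lower. With 8 of 10 called against 79.3% of all tested genes, the share was near the background. In the same 8 genes the 3 P3FI-90 libraries lay wholly above or below the 3 DMSO libraries, against 81.2% of all tested genes. Of the 10, 3 (Txnip, Arrdc4 and Mxd1) passed the test with an absolute log2 fold change over 1, as did 23.3% of tested genes. The median log2 fold change of the 10 was 0.31. The results therefore lie in which genes moved, which way and how far, and not in how many were called.

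**Figure D1:**
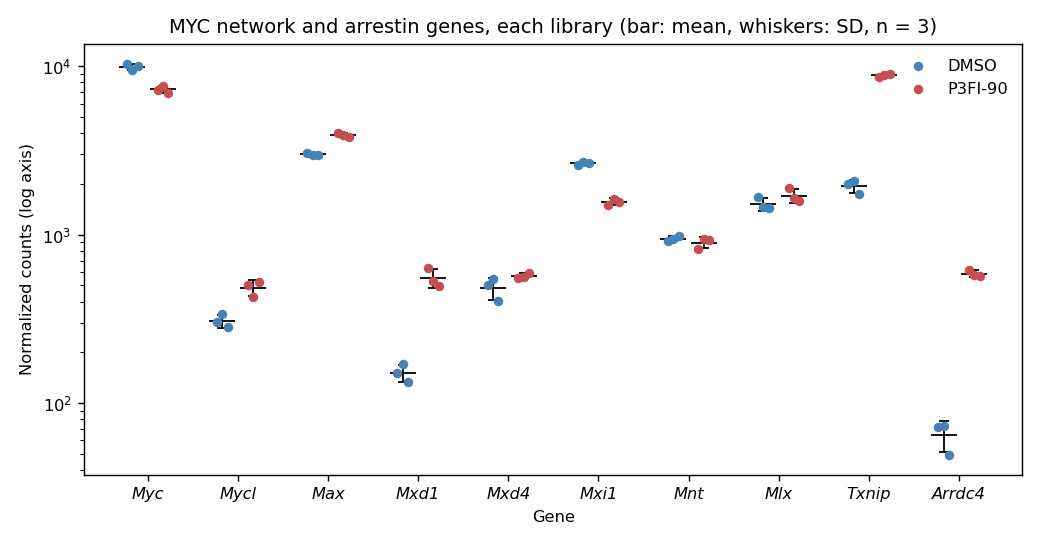
Normalized counts (log axis) of the 10 genes in each library, with DMSO libraries in blue, P3FI-90 libraries in red, a bar at each group mean and whiskers of 1 SD (n = 3 per group). Txnip, Arrdc4 and Mxd1 show the widest gaps between groups, and the groups overlap in Mnt and Mlx.

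Myc (ENSMUSG00000022346, chromosome 15), the best known oncogene of the network, was lower after P3FI-90. Its normalized counts were 10325, 9502 and 10012 in the DMSO libraries and 7257, 7664 and 6889.6 in the P3FI-90 libraries. Every P3FI-90 library lay below every DMSO library, and the mean went from 9946 ± 415 to 7270.5 ± 388 (SD, n = 3). The log2 fold change was −0.45 (SE 0.044, 95% interval −0.55 to −0.36; adjusted p = 2.85e-07, edgeR's quasi-likelihood test). Across 17 other ways of processing the counts the value stayed called and ranged from −0.49 to −0.24, the latter with total counts. The genes whose pattern over the 6 libraries lay nearest to Myc, by Euclidean distance between log2 CPM values centred on each gene's mean, were Cdr2 (0.040), Gnptab (0.057) and Hddc2 (0.058).

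Mycl, the L-MYC gene, moved the other way. Its normalized counts were 302, 336 and 282 in DMSO and 503, 426 and 523 in P3FI-90. The groups did not overlap, although the second P3FI-90 library was lower than the other two. The mean went from 306 ± 27.5 to 484 ± 51.2, with a log2 fold change of 0.66 (SE 0.12, 95% interval 0.41 to 0.91; adjusted p = 1.17e-04, edgeR's quasi-likelihood test). Mycn, the third MYC family gene, had 0 counts in all 6 libraries. A count of 0 allows up to 3 counts, or 0.0802 to 0.0958 CPM, and covers counting error only.

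Max, the obligate partner of MYC and MXD proteins, was higher. Normalized counts of Max were 3039, 2982 and 2963 in DMSO and 4016, 3889 and 3777 in P3FI-90. The DMSO libraries lay close together and all P3FI-90 libraries lay above them. The mean went from 2995 ± 39.6 to 3894 ± 119, with a log2 fold change of 0.38 (SE 0.042, 95% interval 0.29 to 0.47; adjusted p = 1.19e-06, edgeR's quasi-likelihood test). Mga, which encodes a very large MAX partner, was also higher, from 2804 ± 48.9 to 5056 ± 81.8 normalized counts (log2 fold change 0.85, SE 0.038).

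The genes for the MYC antagonists did not move together. Mxd1 (ENSMUSG00000001156, chromosome 6), which is usually induced as cells leave the cycle and differentiate, was higher by 3.65-fold. Its normalized counts were 149.8, 169.8 and 134 in DMSO and 629.7, 531 and 493 in P3FI-90, so the groups were far apart. The mean went from 151 ± 18.1 to 551 ± 70.8, with a log2 fold change of 1.87 (SE 0.13, 95% interval 1.58 to 2.16; adjusted p = 1.12e-08, edgeR's quasi-likelihood test). Mxd1 ranked 591 from the top of the 12288 tested genes by log2 fold change.

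Mxi1 (ENSMUSG00000025025, chromosome 19), also known as MXD2, was lower. Normalized counts of Mxi1 were 2603, 2692 and 2675 in DMSO and 1493, 1637 and 1567 in P3FI-90. All 3 treated libraries lay well below the lowest control. The mean went from 2656 ± 47.3 to 1566 ± 72.0, with a log2 fold change of −0.76 (SE 0.051, 95% interval −0.87 to −0.65; adjusted p = 5.44e-09, edgeR's quasi-likelihood test). Exons of Mxi1 overlap those of Gm10197 on the other strand by 194 bases, and Gm10197 has no entry among the gene counts. Mxd3, the MXD gene linked to the S phase of cycling cells and not one of the 10, was lower as well, with 517, 587 and 635 normalized counts in DMSO and 153, 157 and 149 in P3FI-90 (log2 fold change −1.92, SE 0.12; adjusted p = 1.99e-09, edgeR's quasi-likelihood test).

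For Mxd4 and Mnt the groups lay close together. Normalized counts of Mxd4 were 499.9, 542 and 402 in DMSO and 556, 561 and 594 in P3FI-90. The treated libraries all lay above the controls, but the gap between the groups was smaller than the spread within DMSO. The log2 fold change was 0.25 (SE 0.11, 95% interval 0.014 to 0.48; adjusted p = 0.0497, edgeR's quasi-likelihood test), and the call was lost in 11 of 17 alternatives, in which the adjusted p reached 0.496. Exons of Mxd4 overlap those of Gm42846 on the other strand by 514 bases, and Gm42846 has no entry among the gene counts. Mnt, the widely expressed repressor that dimerizes with MAX or MLX, had normalized counts of 915, 941 and 985 in DMSO and 819.7, 943 and 927 in P3FI-90. These overlapped, and the log2 fold change was −0.08 (SE 0.073, 95% interval −0.24 to 0.08; adjusted p = 0.333, edgeR's quasi-likelihood test) and 0.14 with total counts.

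Mlx, the partner of MondoA and ChREBP, was not called. Its normalized counts were 1676, 1456 and 1435 in DMSO and 1890.1, 1647 and 1579 in P3FI-90. The groups overlapped, since the first DMSO library lay above the other two treated libraries at 1647 and 1579. The log2 fold change was 0.16 (SE 0.075, 95% interval 0.0012 to 0.33; adjusted p = 0.0605, edgeR's quasi-likelihood test), and the gene passed in 8 of 17 alternatives. The exons of Mlx overlap those of Psmc3ip on the other strand by 385 bases, and Psmc3ip was higher (797 ± 41.9 to 1100 ± 57.5 normalized counts, log2 fold change 0.46). Whether reads were counted by strand is not given in the sources used here, so the reads of the pair cannot be told apart there. Mlxip, the MondoA gene, was higher, from 2186 ± 107 to 2679 ± 58.6 normalized counts (log2 fold change 0.29, SE 0.051). Mlxipl, the ChREBP gene, had 0 to 4 counts per library and was not tested.

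**Figure D2:**
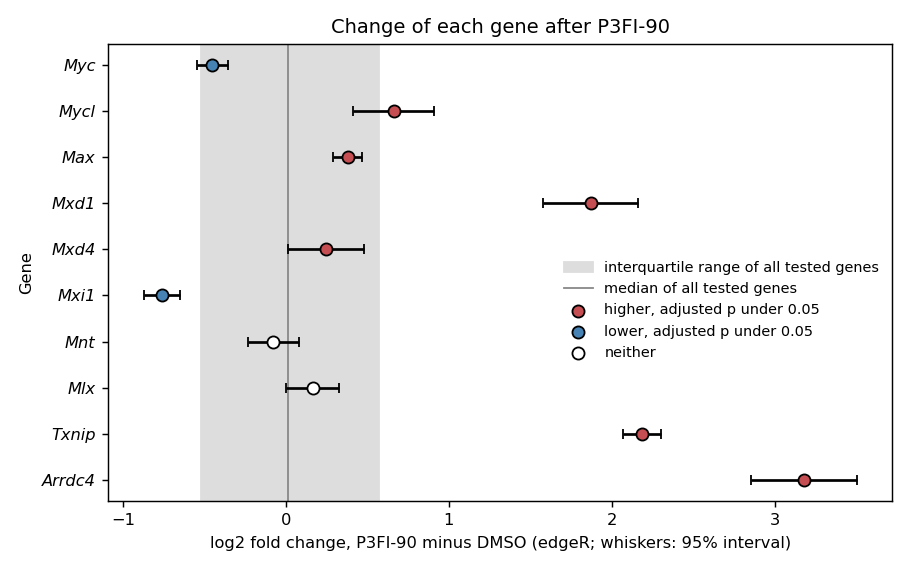
Log2 fold change (P3FI-90 relative to DMSO) of each of the 10 genes with its 95% interval, beside the interquartile range of all tested genes (−0.52 to 0.57). Red points passed the test as higher, blue as lower and white as neither; Arrdc4, Txnip and Mxd1 lie far to the right of the grey range, Mxi1 lies to its left, and the intervals of Mnt, Mlx and Mxd4 include or nearly reach 0.

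Levels were compared between genes as TPM, which divides counts by the summed exon length of each gene. In DMSO the order was Myc at 314 TPM, Max at 71.3, Mlx at 65.2, Txnip at 53.2, Mxi1 at 33.4, Mnt at 17.5, Mycl at 6.50, Mxd4 at 4.86, Mxd1 at 1.83 and Arrdc4 at 1.37. Only Max and Mlx overlapped between libraries among neighbours in this order. With P3FI-90 the order became Txnip at 322 TPM, Myc at 305, Max at 124, Mlx at 97.4, Mxi1 at 26.2, Mnt at 22.1, Arrdc4 at 16.6, Mycl at 13.7, Mxd1 at 8.89 and Mxd4 at 7.67. There the libraries overlapped for Txnip and Myc and for Mxd1 and Mxd4. Txnip moved from the fourth place to the first, and Arrdc4 from the last to the seventh. On the TPM scale, where the median tested gene was higher with P3FI-90, Myc was lower by 0.04 (log2), so the TPM of the 10 genes were read only for their order and for ratios within a library. With the longest transcript as the length, Mycl and Mxd4 changed places in DMSO and Mxd1 and Mxd4 in P3FI-90.

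Ratios within a library showed how the balance of the network differed between groups. The level of Max was 22.2%, 23.7% and 22.3% of that of Myc in DMSO and 41.8%, 38.3% and 41.4% in P3FI-90 (means 22.8 ± 0.817 and 40.5 ± 1.90). With the longest transcript as the length the means were 36.3% and 64.6%. Mycl stood at 1.97%, 2.38% and 1.89% of Myc in DMSO and at 4.67%, 3.74% and 5.11% in P3FI-90, without overlap. These 2 ratios were thus higher in every treated library.

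The summed level of the antagonist genes Mxd1, Mxd3, Mxd4, Mxi1 and Mnt, in contrast, overlapped between the groups relative to Myc. It was 23.1%, 26.7% and 25.5% of Myc in DMSO and 23.0%, 23.1% and 24.9% in P3FI-90. The MAX partner gene Mga was not part of this sum. Its level was 15.5, 15.5 and 16.1 TPM in DMSO and 37.3, 37.0 and 38.6 TPM in P3FI-90. The overlap is therefore stated only for the genes named. Within the sum without Mga the shares differed between groups in every antagonist. A share also moves when the other genes of the sum move, so it does not show a change of that gene. Mnt itself was not called (log2 fold change −0.08), and Mxd4 kept its call in only 6 of 17 alternatives. Mxd1 went from 2.33% ± 0.288 to 12.3% ± 1.87, Mxd4 from 6.20% ± 1.00 to 10.6% ± 0.456 and Mnt from 22.3% ± 0.475 to 30.6% ± 1.55. Mxd3 went from 26.6% ± 1.83 to 10.2% ± 0.266 and Mxi1 from 42.5% ± 0.884 to 36.2% ± 0.627, so Mxi1 held the largest share in both groups. The exact permutation test over 3 against 3 libraries cannot give a two-sided p below 0.1, so these ratios are given as values. Mlxip relative to Mlx overlapped between groups, at 34.7% ± 4.50 and 38.0% ± 3.97.

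**Figure D3:**
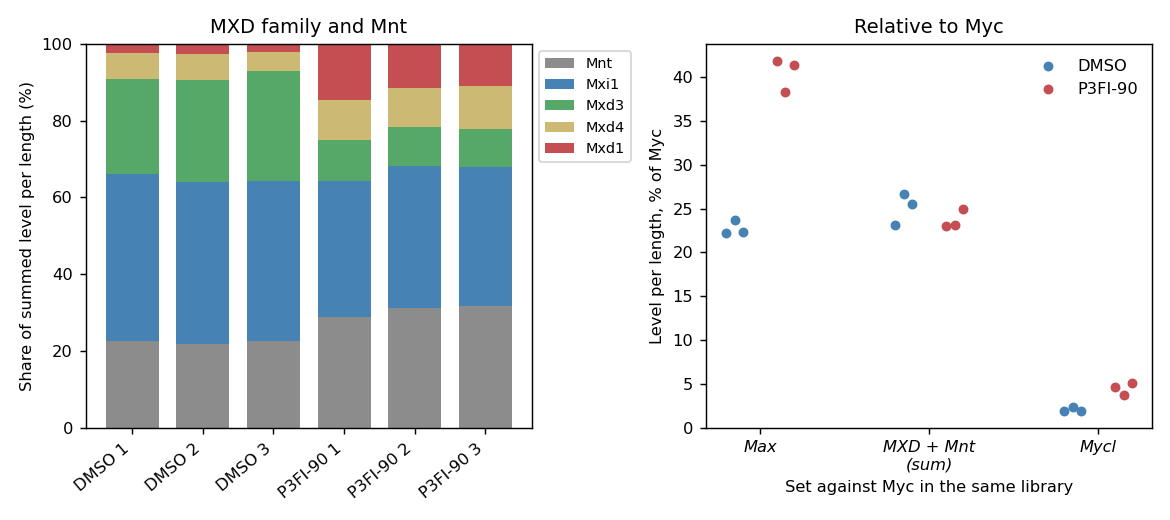
Left, the share (%) of each antagonist gene in their summed TPM, stacked for each of the 6 libraries; right, the TPM of Max, of the summed antagonists (MXD + Mnt) and of Mycl as a percentage of Myc in the same library, 1 point per library. Mxd1 takes a larger and Mxd3 a smaller share of the sum in the P3FI-90 libraries. Max and Mycl relative to Myc separate the groups, and the summed antagonists, which leave out Mga, overlap.

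Txnip (ENSMUSG00000038393, chromosome 3) and Arrdc4 (ENSMUSG00000042659, chromosome 7) rose most of the 10 genes. Txnip had normalized counts of 1999, 2073 and 1742 in DMSO and 8607, 8882 and 8946 in P3FI-90. The groups were far apart and the treated libraries lay close together. The mean went from 1938 ± 173 to 8811 ± 180.2, a 4.55-fold difference with a log2 fold change of 2.19 (SE 0.054, 95% interval 2.07 to 2.30; adjusted p = 1.85e-13, edgeR's quasi-likelihood test). Exons of Txnip overlap an opposite-strand gene, Gm15441, by 606 bases. That gene has no entry among the gene counts and was not analysed here. Because strandedness is not given, its reads cannot be told apart from those of Txnip there.

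Arrdc4 had normalized counts of 71.8, 73.5 and 49.0 in DMSO and 617, 574 and 567 in P3FI-90. It was the least abundant of the 10 per length in DMSO and the one with the largest fold change. The mean went from 64.8 ± 13.7 to 586 ± 26.9, a 9.07-fold difference with a log2 fold change of 3.18 (SE 0.15, 95% interval 2.86 to 3.50; adjusted p = 1.22e-10, edgeR's quasi-likelihood test). By log2 fold change Arrdc4 ranked 245 and Txnip 464 from the top of the 12288 tested genes. The genes nearest to Txnip in pattern were Crebrf (distance 0.086, log2 fold change 2.19), Flcn (0.17, 2.22) and Dynap (0.17, 2.11).

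Of the other alpha-arrestin genes 3 were tested, of which 2 were lower and 1 was not called, beside 39.4% lower among all tested genes. Arrdc1 was lower, with 3601, 3207 and 3438 normalized counts in DMSO and 2378, 2290.1 and 2105 in P3FI-90 (log2 fold change −0.60, SE 0.057; adjusted p = 2.70e-07, edgeR's quasi-likelihood test). Arrdc2 passed as lower with overlapping groups, 419, 277 and 437 against 236, 305 and 317 (log2 fold change −0.41, SE 0.17; adjusted p = 0.0399, edgeR's quasi-likelihood test), and lost its call in 7 of 17 alternatives. Arrdc3, which has a part in beta-adrenergic receptor traffic, was not called, at 809.6, 768 and 836 against 996, 851 and 874 (log2 fold change 0.17; unadjusted p = 0.0439, adjusted p = 0.0550, edgeR's quasi-likelihood test), and passed as higher in 4 of 17 alternatives. Arrdc5 had 0 counts in every library but 1, where it had 3, and was not tested. Of the summed TPM of the 6 alpha-arrestin genes, Txnip made up 27.2%, 30.6% and 25.3% in DMSO and 67.4%, 68.9% and 70.2% in P3FI-90. Per length, Txnip stood at 17.0% ± 1.92 of Myc in DMSO and at 106% ± 6.44 in P3FI-90, and Arrdc4 at 2.56% ± 0.339 and 5.15% ± 0.345 of Txnip.

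The promoters of this pair are shown because MondoA–MLX is known to act through carbohydrate response elements there, each a pair of E-box-like hexamers with a short gap. The 250 bases before the start site were read from RefSeq (build GRCm38.p6), 5′ to 3′ on the strand of the gene, at chr3:96557707-96557956 on the plus strand for Txnip and at chr7:68749239-68749488 on the minus strand for Arrdc4. Capitals mark the 2 hexamers CACGNG (N is any base) with 5 bases between them in Txnip, and the E-box CACGTG in Arrdc4.
Txnip: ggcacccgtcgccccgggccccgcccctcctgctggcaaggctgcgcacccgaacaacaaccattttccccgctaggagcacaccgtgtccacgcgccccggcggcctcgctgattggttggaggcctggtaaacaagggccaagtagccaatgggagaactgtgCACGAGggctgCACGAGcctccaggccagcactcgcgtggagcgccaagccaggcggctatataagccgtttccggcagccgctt
Arrdc4: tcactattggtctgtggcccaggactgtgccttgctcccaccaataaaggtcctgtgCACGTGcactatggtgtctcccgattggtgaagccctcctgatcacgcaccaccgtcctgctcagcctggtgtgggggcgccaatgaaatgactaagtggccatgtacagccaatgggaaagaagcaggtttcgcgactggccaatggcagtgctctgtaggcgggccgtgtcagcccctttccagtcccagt
The hexamer pair of Txnip starts at position −85 and the E-box of Arrdc4 at −193, counted back from the start site. Both strands were searched in windows from 250 bases before to 50 bases after each start site. The pair of hexamers was in 27 of 32851 promoters (0.0822%), and Txnip was the only 1 of the 9 genes with a window that held it. The E-box was in 2349 of 32851 promoters (7.15%) and in 5 of the 9 genes, namely Arrdc4, Max (−3), Mlx (−40), Mnt (−123) and Mxd4 (−219). No match was found in the windows of Txnip, Mxd1, Mxi1 and Mycl, and Myc had no window in the table. A match of letters is a description and not evidence of binding. CCAAT, a motif chosen after the sequences had been read, occurred 6 times in the Arrdc4 window with both strands counted. Among 32851 promoters, 23 (0.07%) held it that often or more, a share that is only descriptive for a motif chosen in this way. It occurred 4 times in Mxd1, 2 times each in Txnip, Mlx and Mxd4, and 0 times in Max, Mnt, Mycl and Mxi1.

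Genes known as MYC-activated were mostly lower. The list was written from general knowledge with earlier results of these data known. Of 26 listed and tested, 22 were lower, 1 was higher and 3 were not called. Among all tested genes 39.4% were lower and 39.9% higher. Their median log2 fold change was −0.80, beside 0.013 for the whole tested set. Npm1, which encodes the nucleolar chaperone nucleophosmin, went from 117065 ± 4734 to 34346.5 ± 166 normalized counts (log2 fold change −1.77, SE 0.029), although 24.3% of its 50-base windows also occur in other genes. Ncl, for nucleolin, fell from 78503 ± 1209 to 28089 ± 225 (−1.48, SE 0.025). Hspd1, the mitochondrial chaperonin gene, fell by 1.41 and Pa2g4, a growth-linked ribosome biogenesis gene, by 1.38 on the log2 scale, and 39.7% of the Hspd1 windows are shared with other genes. The one higher gene was Nop58, a box C/D snoRNP protein (0.42, SE 0.031). With total counts 4 of the 26 were called higher.

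Genes known as MYC-repressed split between directions. Of 12 listed, 9 were tested, and 5 were higher, 3 were lower and 1 was not called (median log2 fold change 0.83). The shares among all tested genes were 39.9% higher and 39.4% lower. The growth arrest genes Gadd45g, Gadd45a and Gadd45b, which are induced by stress, were higher. Gadd45g went from 119 ± 26.9 to 2694 ± 124 normalized counts (log2 fold change 4.49, SE 0.10), Gadd45a from 714 ± 96.4 to 3236 ± 212 (2.18, SE 0.083) and Gadd45b from 1691 ± 149 to 5688 ± 102 (1.75, SE 0.056). Thbs1, for the secreted protein thrombospondin-1, fell from 16345 ± 118 to 10935 ± 301 (−0.58, SE 0.032).

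Other MondoA and ChREBP target genes were more often lower than higher, unlike Txnip and Arrdc4. Of 11 listed, 9 were tested, and 2 were higher, 6 were lower and 1 was not called (median log2 fold change −0.80). Among all tested genes 39.9% were higher and 39.4% lower. The list was not split into MondoA and ChREBP targets, and Mlxipl, the ChREBP gene, had too few counts to test. The higher genes were Klf10, a zinc finger repressor induced by TGF-beta, from 2333 ± 109.6 to 8542 ± 63.0 normalized counts (log2 fold change 1.87, SE 0.040), and Pfkfb3, whose enzyme makes an activator of glycolysis, from 1784 ± 142 to 8849.7 ± 291 (2.31, SE 0.052). The lipid synthesis genes Acly and Fasn fell, from 12613 ± 139 to 5125 ± 39.7 (−1.30, SE 0.032) and from 23878 ± 2186 to 7663 ± 224 (−1.64, SE 0.054). These lists were written from general knowledge, with earlier results of these data known. Many of their genes answer to factors other than MYC or MondoA.

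Genes for the coactivators and corepressors that these dimers recruit moved in both directions. Of 14 listed and tested, 4 were higher, 8 were lower and 2 were not called (median log2 fold change −0.20). The shares among all tested genes were 39.9% higher and 39.4% lower. With total counts 6 were higher and 5 lower, so the majority direction depends on the scaling. Zbtb17, which encodes MIZ1, the zinc finger partner through which MYC represses, went from 1004 ± 19.9 to 2504 ± 113 normalized counts (log2 fold change 1.32, SE 0.053). Sin3a, the corepressor scaffold bound by MXD proteins, fell from 4125 ± 129 to 2233 ± 48.0 (−0.89, SE 0.044). The helicase genes Ruvbl1 and Ruvbl2 of the TIP60 and INO80 complexes fell by 0.93 and 0.88 on the log2 scale, with 49.4% of the Ruvbl1 windows shared with other genes.

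Of 11 genes that set the stability of MYC protein, all tested, 5 were higher, 5 were lower and 1 was not called (median log2 fold change 0.041), beside 39.9% higher and 39.4% lower among all tested genes. With total counts 6 were higher and 2 lower, so this balance depends on the scaling. Gsk3b, the kinase that marks MYC for degradation, rose from 2201 ± 65.9 to 3854 ± 144 normalized counts (log2 fold change 0.81, SE 0.047). Usp36 and Usp28, deubiquitinases that counter the degradation of MYC, went in opposite directions, at 0.78 (SE 0.053) and −0.56 (SE 0.065). Skp2, a ubiquitin ligase subunit, fell by 0.59 (SE 0.039). Protein was not measured in these libraries.

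Of the 12 genes for partners of TXNIP, 11 were tested, and 4 were higher, 6 were lower and 1 was not called (median log2 fold change −0.35). The shares among all tested genes were 39.9% higher and 39.4% lower. Txn1, the cytosolic thioredoxin that TXNIP inhibits, fell from 17780.4 ± 422 to 5501 ± 276 normalized counts (log2 fold change −1.69, SE 0.040). Txnrd1, the reductase that recycles thioredoxin, fell from 9977 ± 361 to 6076 ± 242 (−0.72, SE 0.040). Txnrd2, another reductase gene, rose from 1039 ± 76.2 to 1635 ± 97.0 (0.65, SE 0.068). Of the listed ubiquitin ligase genes, Nedd4, Wwp2 and Wwp1 fell by 0.54 (SE 0.025), 0.68 (SE 0.047) and 0.35 (SE 0.050) on the log2 scale. Nedd4l and Itch rose by 0.72 (SE 0.056) and 0.40 (SE 0.035). Slc2a1, the gene for the glucose carrier GLUT1, was chosen after its values were seen. It had a log2 fold change of 0.06 (SE 0.041) and was not called (adjusted p = 0.220, edgeR's quasi-likelihood test). In 2 of 17 alternatives Slc2a1 passed as higher, with total counts (0.27) and with the length and GC trend removed.

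**Figure D4:**
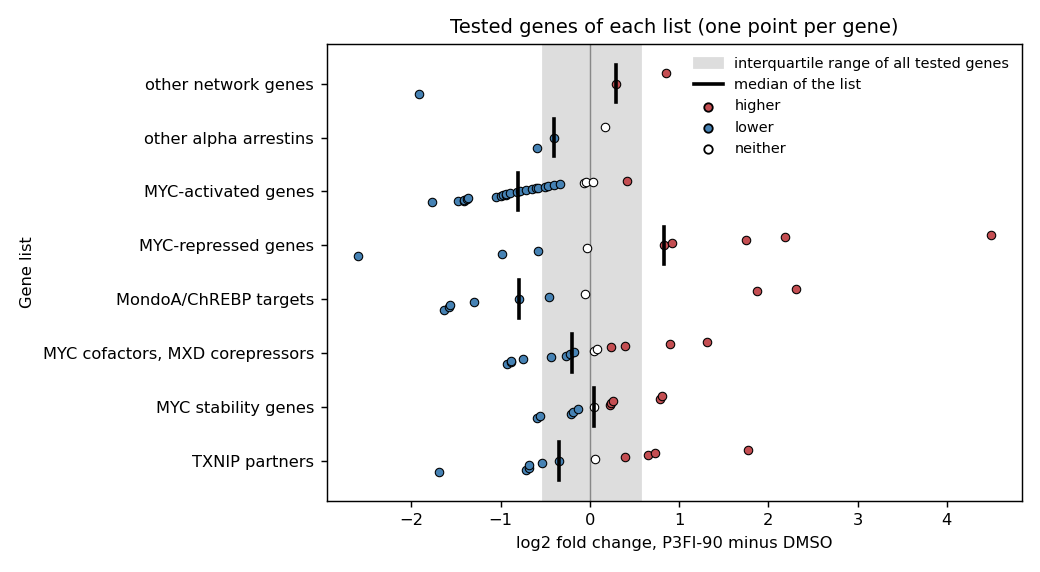
Log2 fold change (P3FI-90 relative to DMSO) of every tested gene of each list, 1 point per gene (red higher, blue lower, white neither) with a black bar at the list's median, a line at 0 and the interquartile range of all tested genes in grey. MYC-activated genes, listed with earlier results of these data known, lie mostly left of 0 (22 of 26 lower, beside 39.4% of all tested genes). The MYC-repressed and MondoA and ChREBP lists spread to both sides.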

How the data were processed

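Messenger RNA of 4T1 cells was sequenced after DMSO or P3FI-90 (3 libraries each), and the authors deposited whole-number counts per gene without normalization. The submitters' processing notes name CASAVA, HISAT2, StringTie and build GRCm39. The counting tool, annotation and strandedness are not given in the sources used here. The limma test of the study was kept as an alternative. The table has 22401 entries, of which 285 without a gene name (0.483% to 0.556% of counts) were left out. Libraries held 31327094 to 37395732 counts on named genes, and limits from 0 counts cover counting error only. Libraries of a group differed by more than counting noise (chi-square of 5.50 to 8.41 per gene), so each was kept as a replicate.

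Counts were filtered with filterByExpr, scaled by TMM and tested with edgeR 4.0.16 (glmQLFit and glmQLFTest, two-sided, Benjamini-Hochberg over 12288 genes, threshold 0.05) in R 4.3.3. Log2 CPM used a prior count of 2. Groups came from the treatment labels. Equally numbered libraries did not deviate together (correlations of −0.021, 0.015 and 0.0049), so no block was used. Lengths, overlapping exons and shared 50-base windows came from GENCODE M21 (GRCm38, another build than the counts), which holds 21995 of the gene identifiers, and promoters from RefSeq GRCm38.p6, which had windows for 9 of the 10 genes. Windows shared with other genes made up at most 0.411% of any of the 10. Protein motifs of the arrestins were planned and not analysed here.

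The genes and lists were chosen with earlier results of these data known. The text names all 10 genes, every gene of lists of up to 5, the 4 genes with the smallest p of longer lists, the 3 nearest in pattern to Myc and to Txnip, and neighbours with overlapping exons. Nop58, Slc2a1, Txnrd2, Wwp1, Nedd4l, Itch, Fnip1, Nfkb2, Rbbp4 and Rbmxl1 lie outside that rule and were named after their values were seen. Alternatives were DESeq2 (1.42.0) size factors, total counts or upper quartiles for TMM, no low-count filter, a minimum of 10 counts per library, the DESeq2 test, limma-voom (limma 3.58.1), limma on log2(CPM + 1), a replicate block, each library left out, the assembled transcripts kept, and a length and GC trend (splines with 4 degrees of freedom) removed.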

Additional observations from a re-analysis of the deposited data

How the results depend on the processing

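Across 17 alternatives, 151 of the values for the 10 genes stayed on their side of the threshold, 11 lost the call and 8 gained it. The sign changed in 2 values, both of Mnt and both uncalled, with total counts (0.14) and with the length and GC trend removed (0.082). Myc, Mycl, Max, Mxd1, Mxi1, Txnip and Arrdc4 kept their calls in all 17. Mxd4 lost its call with upper quartiles (0.21, log2 fold change), no filter (0.24), limma on log2(CPM + 1) (0.24), the assembled transcripts kept (0.24), the length and GC trend removed (0.083) and the replicate block (0.25, adjusted p = 0.0684, edgeR's quasi-likelihood test), and ranged from 0.13 to 0.33 with single libraries left out. Mlx gained a call with DESeq2 size factors (0.17), the DESeq2 test (0.17), at least 10 counts (0.18), total counts (0.38), the trend removed (0.30) and the replicate block (0.16, adjusted p = 0.0156, the same test), and ranged from 0.082 to 0.24 with single libraries left out. The block moved no other of the 10. Of the other alpha-arrestins, 1 was called higher with DESeq2 size factors, at least 10 counts or total counts, 1 was called lower with total counts, limma on log2(CPM + 1), the replicate block or the trend removed, and with single libraries left out 0 to 1 were higher and 1 to 2 lower. Total counts shifted the median gene by 0.21 and gave 4 MYC-activated genes higher, 6 cofactors or corepressors higher and 5 lower, 6 stability genes higher and 2 lower, and turned Pes1 (0.15), Gnl3 (0.17), Cdkn1b (0.18), Me1 (0.16), Hdac2 (0.039), Cip2a (0.025), Ppp2r5a (0.082) and Aurka (0.0051) upward. Removing the trend turned Cdc25a (−0.16), Trrap (−0.33), Ep400 (−0.030) and Huwe1 (−0.27) downward. The cause was not tested. The sign of list genes changed in 15 values of 12 genes, of which the 12 named here were called before or after the change or both, and the other 3 were uncalled values of Cdc25a and Pes1 near 0. Without a sign change 22 further values lost the call and 17 gained it. Depth limits Mycn, Mlxipl and Arrdc5, which had too few counts to test.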

Other observations

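The pair of CACGNG hexamers 5 bases apart that stands in the Txnip promoter occurred in promoters of 26 mouse genes, of which 22 were in the count table and 13 were tested. Of these, 7 were higher with P3FI-90, 4 were lower and 2 were not called, beside 39.9% higher and 39.4% lower among all tested genes. Txnip, whose promoter prompted the search, is 1 of the 7. The median log2 fold change of the 13, with Txnip included, was 0.28, beside 0.013 for all tested genes. Fnip1, which encodes a binding partner of folliculin, went from 1783 to 13915 mean normalized counts (log2 fold change 2.97, SE 0.047), and Nfkb2, an NF-κB subunit gene, had a log2 fold change of 1.23. The lower genes included Rbbp4, which encodes a histone-binding subunit of chromatin complexes, at −0.60, and Rbmxl1 at −0.74. Apart from Txnip, the genes were found by sequence alone and named after their values were seen. No test was made over them.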
